A study of Mus musculus with 16 samples.

Results

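Integrins and laminins are the receptors and a main ligand by which cells hold on to the basement membrane. An integrin is a pair of one alpha and one beta subunit that spans the cell membrane, binds matrix outside and couples to actin inside through talin, kindlin and vinculin. A laminin is a trimer of one alpha, one beta and one gamma chain, and the alpha chain carries the main sites that cells bind. In the facial prominences of the mouse embryo, laminins line the border between the surface ectoderm and the mesenchyme derived from the neural crest and surround the vessels. SRF is a transcription factor that binds the CArG box and drives many genes of the actin cytoskeleton.

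The genes described here are the integrin alpha, integrin beta and laminin chain genes whose symbols follow the mouse Itga, Itgb, Lama, Lamb and Lamc nomenclature and whose TPM (an mRNA level corrected for transcript length and library size) averaged at least 0.1 over the 16 libraries. Of 37 genes with such symbols, 35 met this rule, out of 35639 genes in the TPM table: 16 integrin alpha, 8 integrin beta and 11 laminin chain genes. The levels therefore chose the genes and are given as a description. Just inside the minimum were *Itga7* (mean 0.189 TPM), *Itgae* (0.219 TPM) and *Itgam* (0.260 TPM), and the 2 genes left out were *Itgax* (0.00683 TPM, above 0 in a single library) and *Itgad* (listed at 0 in every library).

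The libraries are bulk RNA-seq of the mandible and of the frontonasal prominence (FNP, the medial and lateral nasal processes) dissected from 8 embryos at E11.5. The 4 mutants, embryos 3, 4, 5 and 6, had the genotype Srf flox/flox; Wnt1-Cre. The 4 controls were of 3 genotypes, Srf flox/+; Wnt1-Cre (embryos 1 and 7), Srf flox/flox without Cre (embryo 2) and Srf flox/+ without Cre (embryo 8), so every embryo carried at least 1 floxed allele. Wnt1-Cre recombines in the neural crest, so the ectoderm, endothelium, blood cells and mesoderm of a mutant prominence keep *Srf*, and in bulk tissue fewer cells of a type and less RNA per cell cannot be told apart. Embryos 1 to 5 belonged to the first litter and embryos 6 to 8 to the second, which left 3 mutants and 2 controls in the first litter, and 1 mutant and 2 controls in the second.

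*Srf* had 10.8 to 14.1 TPM in mutant mandibles, against 34.4 to 65.9 TPM in control mandibles, and 11.8 to 14.7 TPM in mutant FNPs, against 34.7 to 75.2 TPM in control FNPs. Library totals of the deposited gene values ran from 10226942 to 11185674. Markers of neural crest mesenchyme, surface ectoderm, endothelium and blood cells were present in every library. The summed TPM of 13 surface ectoderm markers was 309 to 344 in mutant mandibles, against 293 to 353 in control mandibles, and 393 to 468 in mutant FNPs, against 395 to 483 in control FNPs. The corresponding sum of 12 macrophage and leukocyte markers was 32.1 to 34.9 in mutant mandibles, against 24.1 to 29.5 in control mandibles, without overlap, and 36.9 to 43.9 in mutant FNPs, against 28.6 to 41.9 in control FNPs, with overlap.

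The level of these genes spanned 3 classes: 14 had a mean of 10 TPM or more, 13 lay between 1 and 10 TPM and 8 lay under 1 TPM. *Itgb1*, the beta subunit shared by most matrix-binding integrins, was the most abundant (mean 159 TPM). *Itga6*, whose product pairs with ITGB1 or ITGB4 to bind laminin, averaged 112 TPM, and *Itgb5*, whose product pairs with ITGAV to bind vitronectin, averaged 110 TPM. These 2 genes did not differ beyond their spread over libraries (92.2 to 129 TPM for *Itga6* and 92.2 to 137 TPM for *Itgb5*).

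**Figure D1:**
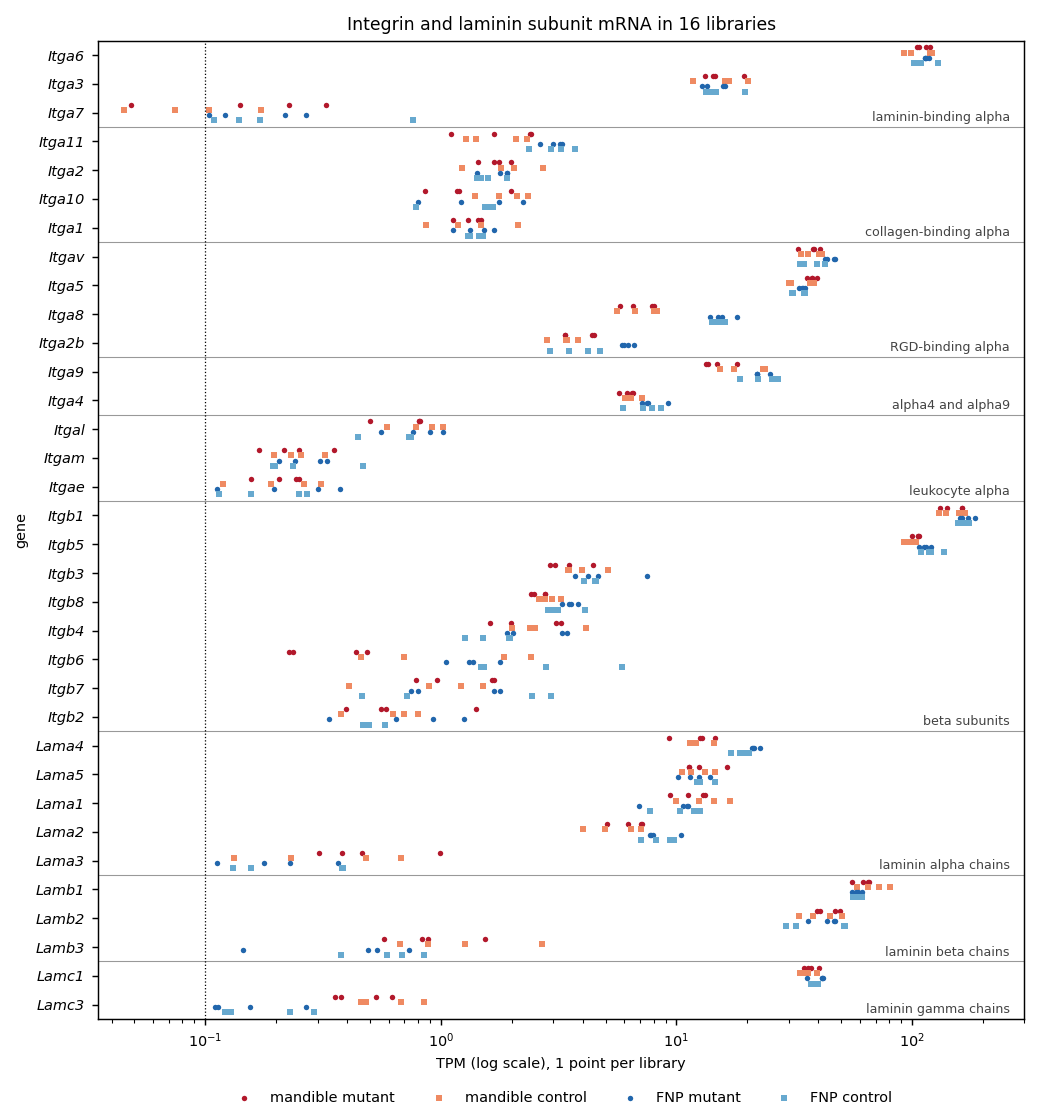
TPM (log axis) of 34 of the 35 genes in each library, grouped by what the subunit binds or by laminin chain and ordered by mean level within a group. Points are single libraries, coloured by tissue and genotype, and the dotted line marks the minimum of 0.1 TPM. *Itgb1*, *Itga6* and *Itgb5* sit highest, and *Itga8*, *Lama4* and *Lamc3* show the tissues apart.

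Among the laminin-binding alpha subunits, *Itga3* averaged 15.4 TPM and *Itga7*, known from skeletal muscle, 0.189 TPM. The RGD-binding group, which recognises fibronectin, vitronectin and related ligands, held *Itgav* (39.5 TPM), *Itga5* (34.8 TPM), the fibronectin receptor subunit, *Itga8* (11.3 TPM), a receptor for nephronectin, and *Itga2b* (4.32 TPM), the platelet alpha subunit. *Itga9*, which binds tenascin C among other ligands, averaged 20.2 TPM, and *Itga4*, which binds VCAM1 and fibronectin, averaged 7.0 TPM. The 4 collagen-binding alpha subunits averaged 1.39 TPM (*Itga1*), 1.53 TPM (*Itga10*), 1.75 TPM (*Itga2*) and 2.44 TPM (*Itga11*). The leukocyte alpha subunits *Itgal*, *Itgam* and *Itgae* and the leukocyte beta subunit *Itgb2* (0.670 TPM) averaged under 1 TPM. The remaining beta subunits were low beside *Itgb1* and *Itgb5*, with means of 4.23 TPM for *Itgb3*, 3.08 TPM for *Itgb8*, 2.39 TPM for *Itgb4*, 1.5 TPM for *Itgb6* and 1.29 TPM for *Itgb7*.

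Of the laminin chains, *Lamb1* (62.0 TPM), *Lamb2* (42.5 TPM) and *Lamc1* (38.1 TPM) led. The alpha chains followed, with *Lama4*, a chain of vessel and mesenchymal laminins, at 16.2 TPM, *Lama5* at 12.6 TPM, *Lama1*, a chain of early embryonic basement membranes, at 11.4 TPM and *Lama2*, the chain of muscle and nerve basement membranes, at 7.27 TPM. The epithelial chain genes *Lama3* and *Lamb3* were below these, at means of 0.349 and 0.859 TPM.

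The make-up of most classes was much the same in both tissues. *Itgb1* took 56.7% ± 3.05 of summed integrin beta TPM in mandibles and 56.1% ± 2.55 in FNPs, and *Itgb5* took 38.8% ± 3.41 in mandibles and 39.0% ± 2.23 in FNPs (SD, n = 8 libraries each). *Itga6* made up 45.3% ± 1.53 of summed integrin alpha TPM in mandibles and 43.0% ± 1.51 in FNPs. The alpha chains differed more, with *Lama4* at 28.1% ± 3.72 of alpha chain TPM in mandibles and 39.1% ± 3.67 in FNPs, and *Lama1* at 28.5% ± 4.51 in mandibles and 19.9% ± 3.31 in FNPs. A share falls when another chain rises, so these percentages describe the mixture and not the level of a single chain.

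**Figure D2:**
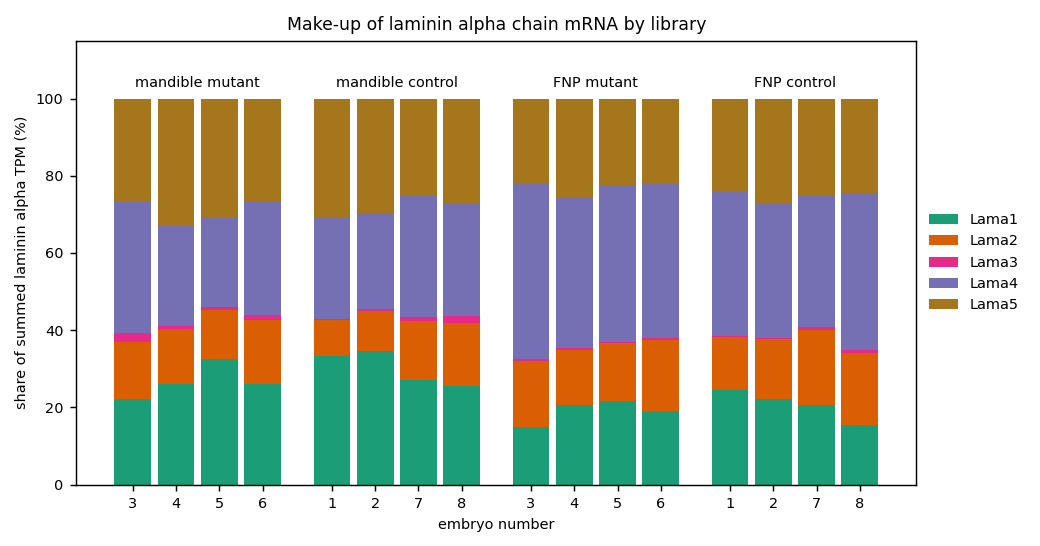
Share (%) of summed laminin alpha chain TPM taken by each of 5 chains, with 1 bar per library labelled by embryo number. *Lama4* takes 23.1 to 34.2% in the 8 mandible libraries and 34.1 to 45.7% in the 8 FNP libraries.

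The first comparison asked how the 2 prominences differ. It was fitted with limma on log2(value + 0.5) of the deposited gene values, mandible over FNP, with covariates for genotype and litter. Calls required a p of 0.05 or less after Benjamini-Hochberg adjustment. Of the 35 genes, 31 passed the filter on low values (10 or more in at least 4 libraries). *Itga7*, *Itgb7* and *Lamb3* did not pass, and *Itgae* is not among the deposited gene values. Of these 31 genes 14 were called, or 45.2%, against 29.7% of all 14630 genes tested. Higher in the mandible were 3 of them, against 11.9% of all genes, and higher in the FNP were 11, against 17.8% of all genes. The median log2 fold change was -0.06 over the 31 genes and -0.0048 over all genes. With quantile normalisation the calls over all genes were 2353 higher in the mandible and 2274 higher in the FNP, compared with 1745 and 2607 as fitted.

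*Itga8* showed the lowest adjusted p. Its TPM ran from 5.59 through a median of 7.30 to 8.23 in mandibles, and from 13.8 through 15.3 to 18.1 in FNPs. The tissues did not overlap, and the log2 fold change was -1.12 ± 0.091 (SE, limma adjusted p = 4.4e-08). ITGA8 pairs with ITGB1, and *Npnt* encodes its ligand nephronectin. *Npnt* had 23.7 ± 3.03 TPM in the mandible against 28.4 ± 3.48 TPM in the FNP (SD, n = 8 libraries each). Its log2 fold change was smaller, at -0.26 (limma adjusted p = 0.0032), and it was not called in mutant embryos alone.

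*Lama4* had 9.34 TPM at the lowest, a median of 12.4 TPM and 14.5 TPM at the highest in mandibles, and 17.1, 20.6 and 22.6 TPM in FNPs. Again the tissues did not overlap (log2 fold change -0.71 ± 0.079, limma adjusted p = 2.0e-06). *Lama2* ran from 4.0 through 6.33 to 7.11 TPM in mandibles and from 7.06 through 8.07 to 10.5 TPM in FNPs. Here the highest mandible library lay just above the lowest FNP library (log2 fold change -0.52 ± 0.077, limma adjusted p = 5.3e-05).

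*Itga11*, which encodes a collagen receptor subunit of mesenchymal cells, ran from 1.1 through 1.88 to 2.4 TPM in mandibles and from 2.36 through 3.10 to 3.73 TPM in FNPs. The overlap was limited to the ends of the ranges (log2 fold change -0.77 ± 0.13, limma adjusted p = 0.00017). The abundant beta subunits differed little in size but in every embryo. *Itgb1* averaged 149 ± 15.3 TPM in mandibles and 169 ± 9.11 TPM in FNPs (SD, n = 8 each), a log2 fold change of -0.18 ± 0.048 (limma adjusted p = 0.0089). *Itgb5* averaged 102 ± 5.09 TPM in mandibles and 118 ± 9.33 TPM in FNPs, a log2 fold change of -0.20 ± 0.051 (limma adjusted p = 0.0056), without overlap between the tissues. In the 4 mutant embryos alone *Itga11*, *Itgb1* and *Itgb5* were not called (limma adjusted p = 0.0567, 0.152 and 0.26).

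The remaining genes called higher in the FNP were *Itgb6*, *Itgb8*, *Itga9*, *Itga4* and *Itga2b*. *Itgb6* and *Itgb8* encode the beta subunits that pair with ITGAV and activate latent TGF-beta. *Itgb6* ran from 0.226 through 0.473 to 2.41 TPM in mandibles and from 1.05 through 1.5 to 5.90 TPM in FNPs, with wide overlap (log2 fold change -1.54 ± 0.37, limma adjusted p = 0.0038). The log2 fold change was -0.30 for *Itgb8*, -0.41 for *Itga9*, -0.25 for *Itga4* and -0.41 for *Itga2b*, and each of these was lower in the mandible of 6 or 7 of the 8 embryos. In the 4 control embryos alone none of these 5 genes was called, with limma adjusted p from 0.232 for *Itgb6* to 0.654 for *Itga2b*, and the log2 fold change was -0.22 for *Itga9* and -0.18 for *Itga2b*. In mutant embryos alone *Itgb6*, *Itgb8* and *Itga9* were called, whereas *Itga4* and *Itga2b* were not, so these last were called in neither genotype alone. Quantile normalisation also ended the calls of *Itgb8*, *Itga9* and *Itga2b* (limma adjusted p = 0.063, 0.0547 and 0.274). The call of *Itga2b* was lost as well (limma adjusted p = 0.0724) when the embryo was fitted as a block, and without embryo 1, 3, 4, 5, 6 or 8. *Itga9* was not called without embryo 5, nor *Itga4* without embryo 6 or 7. Within litters, *Itga9* had a log2 difference of -0.64 in the first litter and -0.038 in the second.

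Higher in the mandible were *Lamc3*, *Lama3* and *Lamb1*. *Lamc3*, a gamma chain gene of low level here, ran from 0.356 through 0.506 to 0.846 TPM in mandibles and from 0.110 through 0.142 to 0.288 TPM in FNPs. It was the single member whose mandible libraries all lay above its FNP libraries (log2 fold change 1.61 ± 0.24, limma adjusted p = 4.8e-05). *Lamb1* averaged 65.7 ± 7.83 TPM in mandibles and 58.3 ± 2.16 TPM in FNPs (SD, n = 8 each), with a log2 fold change of 0.17 ± 0.049 (limma adjusted p = 0.015). *Lama3* ran from 0.133 through 0.422 to 0.988 TPM in mandibles and from 0.112 through 0.203 to 0.382 TPM in FNPs (log2 fold change 0.83 ± 0.28, limma adjusted p = 0.035). Its ranges overlapped, although each embryo had more in its mandible. The call of *Lama3* was lost in 7 of 18 alternatives. Among these were control embryos alone (log2 fold change 0.43, the lowest) and mutant embryos alone (1.23, the highest), so neither genotype alone gave the call. It was also lost without the litter term (limma adjusted p = 0.123) and without embryo 2, 4, 5 or 8 (0.0567 to 0.0858). *Lamb1* was not called in mutant embryos alone (limma adjusted p = 0.338) or without embryo 8 (0.0518).

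**Figure D3:**
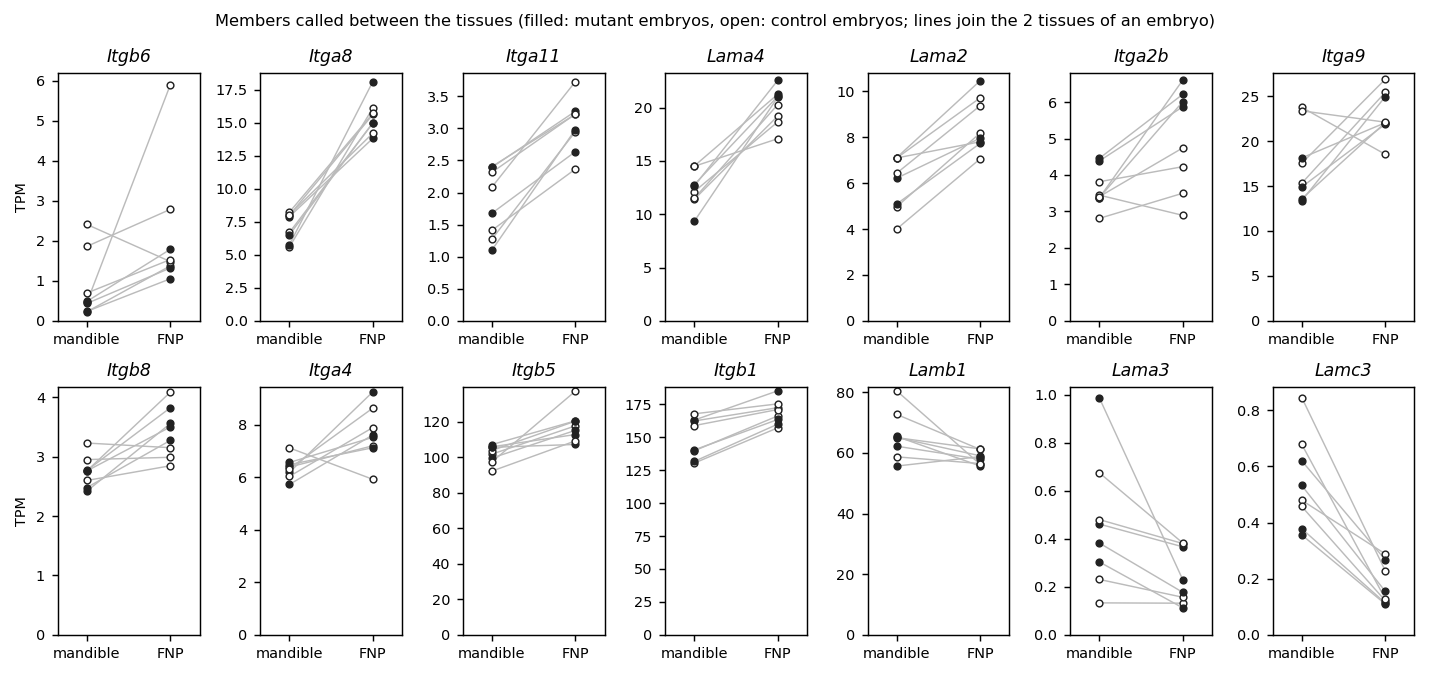
TPM of the 14 genes called between the tissues, mandible left and FNP right, with axes from 0. Lines join the 2 tissues of an embryo, filled points are mutants and open points controls. The lines of *Itga8*, *Lama4*, *Lama2*, *Itga11*, *Itgb5* and *Itgb1* run up to the FNP in all 8 embryos, and those of *Lamc3* and *Lama3* run down.

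Since both tissues came from the same 8 embryos, the difference can also be read within each embryo. Of the 31 genes, 6 were higher in the FNP of all 8 embryos (*Itgb1*, *Itgb5*, *Lama4*, *Itga8*, *Lama2* and *Itga11*), against 14.1% of all genes, and 3 were higher in the mandible of all 8 (*Lama1*, *Lamc3* and *Lama3*), against 8.24% of all genes. *Lama1* averaged 12.6 ± 2.45 TPM in mandibles and 10.3 ± 1.97 TPM in FNPs (SD, n = 8 each). It was not called as fitted (log2 fold change 0.29 ± 0.12, limma adjusted p = 0.0775), and was called with the embryo as a block (log2 fold change 0.29 ± 0.053, limma adjusted p = 0.0012). *Lamb3*, which was too low for the fit, was also higher in the mandible of all 8 embryos, at 1.17 ± 0.69 TPM in mandibles against 0.551 ± 0.221 TPM in FNPs. Each gene with 8 of 8 embryos in one direction has an exact two-sided sign-flip p of 0.00781, the smallest that 256 arrangements can give. By complete separation of the tissues, 1 of the 31 genes was higher in the mandible (2.76% of all genes) and 3 were higher in the FNP (6.35% of all genes), namely *Itga8*, *Lama4* and *Itgb5*. All 14 called genes kept their direction within each litter, with *Itga9* near 0 in the second (log2 difference -0.038). The litters are parts of the same libraries that gave the calls, so this is not separate support.

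Cell type markers differed between the prominences too. The summed level of the 13 surface ectoderm markers was 293 to 353 TPM in mandibles and 393 to 483 TPM in FNPs. Of these markers 12 were called, with 5 higher in the mandible and the other 7 in the FNP. *Epcam* averaged 35.3 ± 4.76 TPM in mandibles and 84.7 ± 5.78 TPM in FNPs. *Krt5*, a basal keratinocyte gene, was among the 5 higher in the mandible, with 31.2 ± 13.7 TPM in mandibles and 16.6 ± 9.79 TPM in FNPs (SD, n = 8 each). It was highest in the mandibles of embryos 3 (49.5 TPM), 8 (43.2 TPM), 7 (40.6 TPM) and 6 (39.4 TPM) and ran from 11.6 to 25.1 TPM in the other mandibles. *Lamb3* had 0.879, 0.833, 0.571 and 1.55 TPM in mutant mandibles (embryos 3, 4, 5 and 6), against 0.885, 0.669, 1.27 and 2.68 TPM in control mandibles (embryos 1, 2, 7 and 8). Its 3 highest values fell in embryos 8, 6 and 7, which make up the second litter. The geometric mean of *Lamb3* in mandibles was 0.758 TPM in the first litter and 1.75 TPM in the second. The part of litter in its level was not tested. The sum of 10 skeletal muscle markers was 38.0 to 119 TPM in mandibles and 6.51 to 15.1 TPM in FNPs, and that of 10 neuronal markers was 61.0 to 117 TPM in mandibles and 210 to 295 TPM in FNPs. The part of these differences in the values of the integrin and laminin genes was not tested.

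The partners of these genes were read from 3 lists. Of 24 integrin activators and adaptors tested, 10 were called, with 3 higher in the mandible and the other 7 in the FNP. They include *Parva*, a link between integrin-linked kinase and actin (74.8 ± 2.82 TPM in mandibles and 92.0 ± 7.29 TPM in FNPs, log2 fold change -0.29), the kindlin gene *Fermt2* (-0.32), the kindlin gene of epithelia *Fermt1* (0.47) and *Apbb1ip*, which links Rap1 to talin (0.71). Of 22 ligands other than laminins, 10 were called, with 4 higher in the mandible and the other 6 in the FNP. *Vcam1*, a ligand of ITGA4, had a log2 fold change of -1.12 (18.3 ± 2.80 TPM in mandibles and 39.5 ± 3.50 TPM in FNPs), and *Edil3*, which binds ITGAV integrins, had -1.05. *Mfge8*, another RGD ligand, had 0.39 and *Svep1*, a ligand of ITGA9, had -0.84. *Tnc*, which encodes tenascin C, another ligand of ITGA9, went the other way from *Itga9*. It averaged 11.3 ± 5.36 TPM in mandibles and 3.38 ± 1.37 TPM in FNPs (SD, n = 8 libraries each).

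Of 24 basement membrane partners of laminin, 12 were called, with 4 higher in the mandible and the other 8 in the FNP. *Frem1*, of the Fraser complex, had 19.5 ± 2.69 TPM in mandibles and 36.9 ± 4.60 TPM in FNPs (log2 fold change -0.92), and the collagen IV chain gene *Col4a6* had a log2 fold change of -1.01. The matrix protein genes *Smoc2* (1.5) and *Smoc1* (0.70) were higher in the mandible. The share called was 41.7% of the activators, 45.5% of the ligands and 50% of the basement membrane partners, against 29.7% of all genes. The median log2 fold change was -0.037, -0.058 and -0.031 in these lists.

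The second comparison asked whether loss of *Srf* in the neural crest altered the mRNA of these genes. None of the 31 was called in both tissues together (mutant over control, limma with litter and tissue as covariates), against 195 of 14630 genes or 1.33% of all genes. At an unadjusted p under 0.05 there were 5 of the 31 (*Itga2b*, *Itgb6*, *Itga5*, *Lamb2* and *Lama2*), against 17.4% of all genes. The joint fit takes both tissues of an embryo as separate samples. In the same fit the cytoskeletal gene *Actg1* fell by 1.42 ± 0.032 and *Vcl*, which couples talin to actin, fell by 1.04 ± 0.046 on the log2 scale (limma adjusted p = 2.0e-14 and 2.4e-10).

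The median log2 fold change of the 31 genes was 0.011, against 0.0019 over all genes, with 16 estimates above and 15 below 0. For 22 of them the 95% interval of the log2 fold change lay within ±0.5. For the 14 genes of at least 10 TPM the estimates lay between -0.22 and 0.24, and their intervals reached from -0.48 to 0.43. For *Itgb1* the estimate was 0.05 with an interval of -0.055 to 0.16, for *Itgb5* 0.011 with -0.0997 to 0.12, and for *Itga6* 0.089 with -0.028 to 0.21. *Lamb1* had -0.048 (-0.16 to 0.059) and *Lamc1* 0.053 (-0.054 to 0.16). These intervals count both tissues of an embryo as separate samples, so they may be too narrow for a difference between embryos. Differences inside them could not be resolved with 8 embryos.

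**Figure D4:**
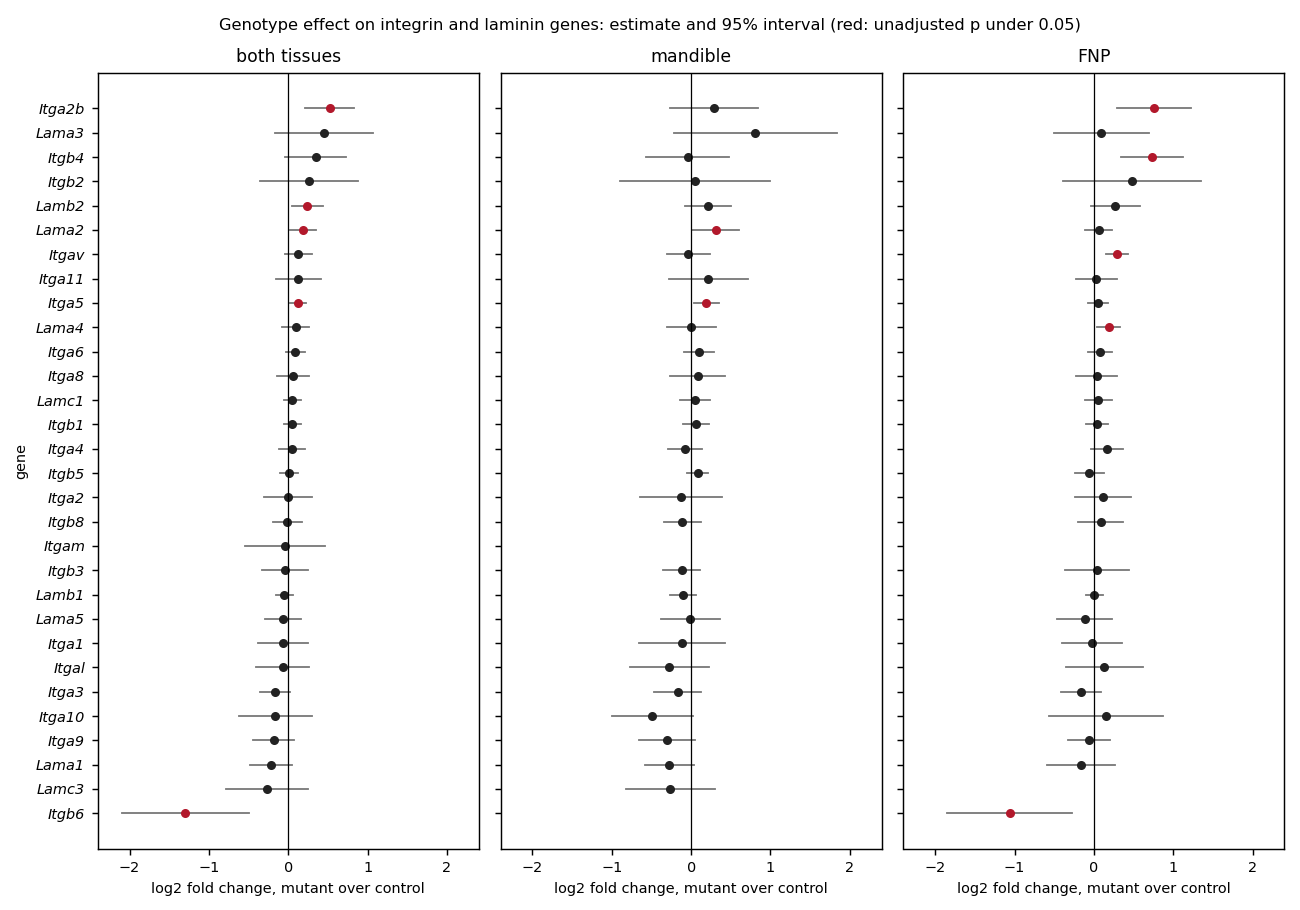
Log2 fold change, mutant over control, with 95% intervals, for 30 of the 31 genes tested in both tissues together, and for those of them tested in the mandible and in the FNP. *Itgb6* and *Itgam* were too low to test in the mandible, and *Itgam* and *Lamc3* in the FNP. The intervals for both tissues together count the tissues of an embryo as separate samples. Red points have an unadjusted p under 0.05 and none passes the adjusted threshold. *Itgb6* has the lowest estimate (-1.30 in both tissues together) and *Itga2b* the highest (0.52).

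*Itgb6* had 0.486, 0.236, 0.226 and 0.434 TPM in the mandibles of mutant embryos 3, 4, 5 and 6, against 1.86, 0.460, 2.41 and 0.695 TPM in those of control embryos 1, 2, 7 and 8. In the FNP it had 1.79, 1.05, 1.37 and 1.32 TPM in the mutants, against 2.78, 5.90, 1.48 and 1.53 TPM in the controls. The groups overlapped in both tissues, with 1 control mandible inside the mutant range and 2 control FNPs inside it. The log2 fold change was -1.30 ± 0.38 in both tissues together (limma adjusted p = 0.0975). In the FNP the log2 difference was -1.5 in the first litter and -0.18 in the second, and in the mandible it was -1.39 in the first and -1.40 in the second. *Itgb6* was too low to be tested in the mandible alone.

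The promoter of *Itgb6* is shown because it is 1 of 2 among these genes that hold a CArG box, beside the boxes of *Srf* itself and of 3 cytoskeletal genes known as SRF targets. RefSeq promoter windows (GRCm38.p6, 250 bases before to 50 after a start) were found for 22 of the 35 genes, in 25 windows. Both strands were searched for the CArG box by its consensus, and 2 of the 25 windows held one, against 1.63% of all 32851 promoters. Capitals mark the box, with 10 bases of flank on either side, 5′ to 3′ on the strand of the gene.
Itgb6: cacctgacttCCTTATAAGGtgaatgagga
Lama2: aaccaaggacCCTTTAAAGGcccaggcctg
Vcl: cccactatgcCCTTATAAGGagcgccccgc
Cnn2: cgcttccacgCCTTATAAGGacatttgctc
Actg1: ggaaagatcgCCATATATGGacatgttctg
Srf, first box: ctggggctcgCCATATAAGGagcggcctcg
Srf, second box: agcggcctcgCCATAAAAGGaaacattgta

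The *Itgb6* window printed lies at chr2:60673724-60673753 on the minus strand, with the box 50 to 41 bases before the second of 2 annotated starts, inside the span of the gene. The promoter window of its first start (chr2:60722554-60722853) held no box. The *Lama2* window lies at chr10:27616962-27616991 on the minus strand, with the box 39 to 30 bases before the RefSeq start, also inside the span of the gene. The box of *Itgb6* has the same 10 letters as those of *Vcl* (chr14:20929161-20929190, plus strand) and *Cnn2* (chr10:79988534-79988563, plus strand). The windows of *Actg1* (chr11:120348566-120348595) and *Srf* (chr17:46556225-46556254 and chr17:46556205-46556234) are on the minus strand. *Cnn2* had 32.1 to 37.1 TPM in mutant mandibles, against 102 to 133 TPM in control mandibles. The match is a description of the letters, and it was not tested whether SRF binds there.

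*Lama2* had 6.22, 7.10, 5.09 and 7.11 TPM in the mandibles of mutant embryos 3, 4, 5 and 6, against 4.0, 4.97, 7.10 and 6.44 TPM in those of control embryos 1, 2, 7 and 8. In the FNP it had 7.96, 7.80, 7.74 and 10.5 TPM in the mutants, against 7.06, 8.19, 9.72 and 9.38 TPM in the controls. The groups overlapped in both tissues (log2 fold change 0.18 ± 0.08, limma adjusted p = 0.248).

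*Itga2b* had the smallest p of the 31 genes. It had 3.37, 4.38, 3.38 and 4.45 TPM in mutant mandibles (embryos 3, 4, 5 and 6), against 2.81, 3.45, 3.81 and 3.40 TPM in control mandibles (embryos 1, 2, 7 and 8). In the FNP it had 6.60, 5.87, 6.01 and 6.21 TPM in mutants, against 3.50, 2.89, 4.23 and 4.74 TPM in controls, so all mutant FNPs lay above all control FNPs. The log2 fold change was 0.52 ± 0.15 in both tissues together (limma adjusted p = 0.0842), and the call was made, with 0.51 and an adjusted p of 0.0361, when TPM took the place of the gene values. ITGA2B marks platelets and megakaryocytes. The summed level of 6 platelet markers was 37.1 to 62.4 TPM in mutant FNPs, against 37.9 to 44.7 TPM in control FNPs, and 26.4 to 41.6 TPM in mutant mandibles, against 31.2 to 44.6 TPM in control mandibles. *Pf4* had 30.6 ± 8.46 TPM in mutant FNPs and 26.6 ± 0.463 TPM in control FNPs (SD, n = 4 each). *Itgb3*, the beta partner of ITGA2B, had a log2 fold change of -0.04 ± 0.14 (limma adjusted p = 0.908). The part of platelets in the level of *Itga2b* was not tested.

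*Itga5* had 39.6, 37.8, 35.9 and 37.8 TPM in mutant mandibles, against 30.6, 30.2, 38.2 and 36.9 TPM in control mandibles. In the FNP it had 35.1, 33.2, 34.4 and 34.2 TPM in mutants, against 30.9, 31.3, 35.2 and 34.9 TPM in controls. The control values of the second litter (embryos 7 and 8) lay among or near the mutant values in both tissues (log2 fold change 0.12 ± 0.045, limma adjusted p = 0.18). Leaving out embryo 6, the single mutant of that litter, gave 0.21 and an adjusted p of 0.0357.

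*Lamb2*, a laminin beta chain of vessels, muscle and nerve, had 40.6, 49.7, 39.6 and 47.1 TPM in mutant mandibles, against 33.1, 37.8, 50.2 and 44.7 TPM in control mandibles. In the FNP it had 36.2, 46.6, 43.5 and 47.2 TPM in mutants, against 32.2, 29.1, 52.0 and 51.2 TPM in controls. The controls split by litter. The log2 fold change was 0.24 ± 0.092 (limma adjusted p = 0.197). Within the first litter the log2 difference was 0.28 in mandibles and 0.45 in FNPs, and within the second, with 1 mutant, it was -0.009 in mandibles and -0.13 in FNPs.

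**Figure D5:**
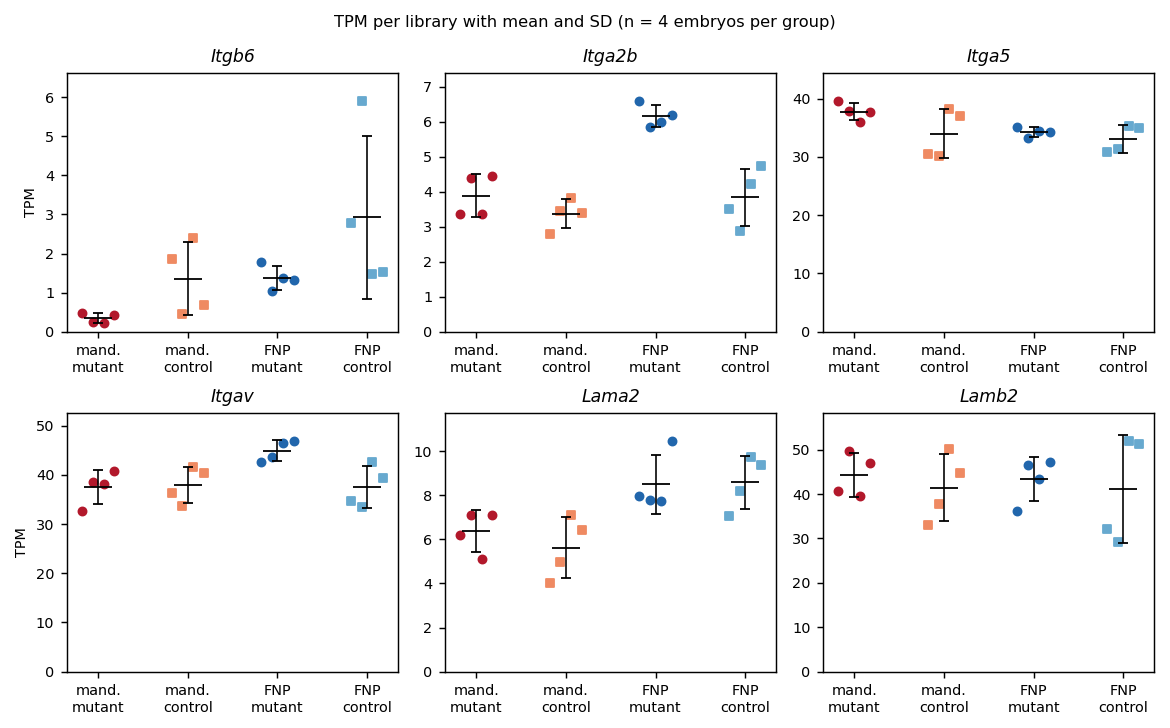
TPM of 6 genes in each library, mutants left of controls within the mandible and within the FNP, with axes from 0. Bars give the mean and SD of 4 embryos. *Itga2b* separates the FNP groups. *Itgav* does so only narrowly, with the lowest mutant at 42.58 TPM and the highest control at 42.56 TPM. *Itgb6* overlaps in both tissues, and *Itga5* and *Lamb2* span a wide range in the controls.

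Each tissue was also fitted alone with litter as covariate, for 29 of the genes. In the mandible none was called, against 0.1% of all genes, and 3 had an unadjusted p under 0.05, against 7.2% of all genes. Among them were *Itga5* (log2 fold change 0.19 ± 0.071) and *Lama2* (0.31 ± 0.13). No gene of the 29 separated mutant from control mandibles, against 1.33% of all genes higher and 1.04% lower in mutants.

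In the FNP none was called, against 0.106% of all genes, and 5 had an unadjusted p under 0.05, against 13.7% of all genes. These were *Itgav* (log2 fold change 0.29 ± 0.062, limma adjusted p = 0.179), *Itgb4* (0.73 ± 0.17), *Itga2b* (0.76 ± 0.21), *Itgb6* (-1.06 ± 0.35) and *Lama4* (0.18 ± 0.067). In 3 of the 29 genes every mutant FNP lay above every control FNP, against 1.62% of all genes, and in none below, against 1.8% of all genes. *Itgav* had 42.6, 43.7, 46.5 and 46.9 TPM in mutant FNPs, against 34.7, 33.5, 42.6 and 39.4 TPM in control FNPs. Its lowest mutant FNP (embryo 3, 42.58 TPM) and highest control FNP (embryo 7, 42.56 TPM) nearly touched. *Lama4* had 21.3, 21.1, 21.0 and 22.6 TPM in mutant FNPs, against 19.2, 18.7, 17.1 and 20.3 TPM in control FNPs. The summed level of 10 endothelial markers was 223 to 245 TPM in mutant FNPs, against 199 to 239 TPM in control FNPs (medians 239 and 211 TPM), with overlap. Of these markers *Pecam1* (23.0 to 25.5 TPM in mutant FNPs, against 19.0 to 21.4 TPM in control FNPs), *Cdh5* (35.5 to 38.1 TPM, against 31.1 to 33.9 TPM) and *Esam* (14.1 to 17.7 TPM, against 12.5 to 13.99 TPM) separated the FNP groups, and none of the 10 was called. The part of vessels in the level of *Lama4* was not tested. For *Itgav*, *Lama4* and *Itga2b* the exact permutation p was 0.0286 (two-sided, n = 4 each), the smallest that 70 arrangements can give. *Itgb4*, the partner of ITGA6 in hemidesmosomes, had 1.91, 2.03, 3.26 and 3.42 TPM in mutant FNPs, against 1.26, 1.51, 1.95 and 1.96 TPM in control FNPs, with 1 mutant inside the control range. None of the 28 genes tested in each tissue separated the groups in both, against 0.0873% of all genes higher and 0.255% lower in mutants.

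The genotype effect was set against the tissue by an interaction term (mandible effect over FNP effect). No gene of the 31 was called, nor any of the 14630 genes tested with limma. Unadjusted p was under 0.05 for 3 of the 31, against 4.36% of all genes (638 genes). Among them were *Itgb4* (log2 difference of effects -0.78 ± 0.30) and *Itgav* (-0.33 ± 0.13), each with a limma adjusted p of 0.999.

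Among the other genes of the joint fit, *Itgb4* had a log2 fold change of 0.34 ± 0.18, *Lama3* 0.45 ± 0.29, *Itga3* -0.17 ± 0.091, *Lama1* -0.22 ± 0.12, *Itga9* -0.18 ± 0.12 and *Lamc3* -0.27 ± 0.25, with limma adjusted p from 0.341 for *Itgb4* to 0.613 for *Lamc3*. Among the partners, 0 of 24 integrin activators and adaptors, 1 of 22 ligands and 0 of 24 basement membrane partners were called between the genotypes. The ligand was *Tgfb2*, whose product is held latent until freed. It had 35.3 ± 7.23 TPM in mutant mandibles and 29.1 ± 10.9 TPM in control mandibles, and 43.0 ± 8.04 TPM in mutant FNPs and 33.8 ± 9.07 TPM in control FNPs (SD, n = 4 each), a log2 fold change of 0.50 ± 0.11 (limma adjusted p = 0.0355). With both tissues of an embryo linked as a block the limma adjusted p of *Tgfb2* was 0.0537, and with 1 summed value per embryo it was 0.258. It ran from 0.0696 to 0.252 without embryo 1, 2, 4 or 7. The kindlin gene *Fermt2* lay at the threshold, with 55.0 ± 3.85 TPM in mutant mandibles and 66.9 ± 3.84 TPM in control mandibles, and 71.3 ± 2.87 TPM in mutant FNPs and 81.0 ± 8.01 TPM in control FNPs (log2 fold change -0.23 ± 0.055, limma adjusted p = 0.0501). In the other 2 lists the smallest adjusted p not called was that of *Ccn1*, a secreted ligand, at 0.079 (log2 fold change -0.62 ± 0.17), and that of the collagen IV chain gene *Col4a5*, at 0.0743 (0.23 ± 0.06). *Ccn1* had 15.7, 14.6, 10.2 and 13.1 TPM in mutant mandibles, against 28.3, 20.2, 20.8 and 21.7 TPM in control mandibles, without overlap. Its FNP groups overlapped, at 19.5 ± 6.63 TPM in mutant FNPs and 22.9 ± 9.0 TPM in control FNPs (SD, n = 4 each).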

How the data were processed

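The authors sequenced mRNA from 16 libraries and quantified it with Salmon 1.5.0 against mm10, followed by sleuth 0.30.0-4 in gene mode. The deposited gene values are a signal (15451 genes), made from estimated counts per gene and a size factor per library, and the deposited TPM are also scaled by library (totals 920899 to 1069140). Both hold the same measurement: the ratio of gene value to TPM varied by a median of 0.92% over libraries. Neither holds whole reads, so no count model was fitted, and sequencing depth enters only through the spread between embryos. TPM sum all annotated transcripts of a gene. The authors' deposited tables of their own comparisons (effects, p-values and q-values) were not used.

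Genes reaching 10 in 4 or more libraries were tested with limma 3.58.1 (R 4.3.3, variance trend) on log2(value + 0.5), which understates changes of low genes, and called at an adjusted p (Benjamini-Hochberg, over all genes tested) of 0.05 or less. Covariates were litter, and tissue or genotype where both vary. The code was tested on simulated data. Single levels were compared by exact permutation of embryos, and within-litter differences are of log2(TPM + 0.1). Named are the genes with the highest mean TPM, those called or with the smallest p in a comparison, and those next to the TPM minimum. *Actg1*, *Vcl*, *Cnn2*, *Npnt*, *Tnc*, *Ccn1*, *Krt5*, *Epcam*, *Pecam1*, *Cdh5* and *Esam* were added after their values were seen. The members and lists were chosen with earlier results of these data known. The counts include 1 gene that is not reported here. Alternatives were other pseudocounts (1 and 5), filters, scalings, TPM, no litter term, parts of the controls, an embryo block and leaving out each embryo.

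The numbers of the labels pair the tissues, since an embryo gave both. Deviations from the group means correlated at 0.0993 to 0.234 between the tissues of an embryo. For each embryo this was above the correlations of its FNP with the mandibles of the other embryos of its genotype class. Deviations within a group cancel out, which pushes those other correlations down. Coordinates are those of GENCODE vM21 (GRCm38), and promoters are from RefSeq. Figures were drawn with matplotlib 3.10.9.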

Additional observations from a re-analysis of the deposited data

Results flagged for a closer look

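In groups of 4 libraries, a level was looked at again where the gap between the highest or lowest library and its nearest neighbour took more than 0.829 of the whole range. This held in 11 of 140 groups of the 35 genes, where chance gives about 1 in 20. The 2 genes flagged in FNP mutant 3 were *Lamc1* at 35.8 TPM (41.3 to 41.9 TPM in the other mutants) and *Lama1* at 6.95 TPM (10.7 to 11.2 TPM). *Itga9* stood out in FNP mutant 5 at 24.9 TPM, and *Lama2* in FNP mutant 6 at 10.5 TPM (7.74 to 7.96 TPM in the other mutants). In FNP control 1 there were 3 such genes, *Itga10* at 0.787 TPM, *Itgam* at 0.466 TPM and *Itga7* at 0.764 TPM. *Lama5* stood out in FNP control 2 at 14.5 TPM, and *Itgb3* and *Itgal* in FNP control 8 at 4.05 and 0.443 TPM. In the mandible the single case was *Itgal* in mutant 6 at 0.501 TPM (0.807 to 0.812 TPM in the other mutants).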

How the results depend on the processing

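No called integrin or laminin gene reversed under the alternatives run. Between the tissues, 14 genes were called as fitted, 9 in control embryos only, 7 in mutant embryos only, and 11 to 14 when each embryo was left out. Of all genes, 17.7% were called in control embryos only and 15.9% in mutant embryos only. That share was 25.9% to 28.9% when each embryo was left out. With the embryo as a replicate block 14 were called, of which 13 were the same. *Itga8*, *Lama2*, *Lama4* and *Lamc3* were called in all 19 alternatives run, *Itga2b* in 8 of 19 and *Lama3* in 11 of 18. The calls missing in control embryos only were those of *Itgb6*, *Itgb8*, *Itga9*, *Itga4*, *Itga2b* and *Lama3*. Those missing in mutant embryos only were *Itga11*, *Itgb1*, *Itgb5*, *Itga4*, *Itga2b*, *Lamb1* and *Lama3*. *Lama1* was called with the block and without embryo 3. Of the partners named, *Fermt1* was not called in control embryos only (adjusted p = 0.211), nor *Apbb1ip* and *Npnt* in mutant embryos only (adjusted p = 0.0981 and 0.128). Between the genotypes, 1 gene instead of 0 was called in both tissues together with TPM, and 0 to 1 when each embryo was left out. With the replicate block 0 were called, and the interaction also gave 0. *Tgfb2* lost its joint call without the litter term (adjusted p = 0.672), against controls with or without Cre only, with the block, with the tissues summed, and without embryo 1, 2, 4 or 7. *Fermt2* gained it with pseudocounts of 1 and 5, with TPM and without embryo 6 or 7, and *Col4a5* with equal library totals and without embryo 6. No paired analysis was possible because mutant and control embryos share no number for the genotype comparisons within a tissue.

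Over all genes, the joint count of 195 became 124 with quantile normalisation, 28 without the litter term, 24 against controls with Wnt1-Cre only, 36 against controls without Cre only, 113 with the replicate block and 20 with the tissues summed per embryo, and 41 to 367 with an embryo left out. It was 367 without embryo 6, 43 without embryo 1, 41 without embryo 2 and 67 without embryo 4. The FNP count of 15 became 28 with TPM and 9 to 20 with an embryo left out. The mandible count of 14 became 7 against controls with Wnt1-Cre only and 11 to 17 with an embryo left out. The tissue count of 4352 became 2506 in control embryos only and 2261 in mutant embryos only, and 3781 to 4213 with an embryo left out. The interaction gave 0 to 1 with an embryo left out. A filter of at least 1 in 4 libraries was added after seeing the data. The causes were not tested. The parts of the controls and of the embryos also hold fewer samples, and the share of this in their counts was not tested.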
